A study of Homo sapiens with 8 samples.

Results

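The sites bound by the progesterone receptor (PR) in T47D-MTVL cells after 360 min of the progestin R5020 were set against those after 60 min. Every site of the 2 deposited lists was taken, 23841 sites at 360 min and 24436 sites at 60 min. A site was called kept where it overlapped a site of the other list by 1 bp or more. It was called gained where it was listed at 360 min and overlapped no 60 min site, and lost where it was listed at 60 min and overlapped no 360 min site. Merging the 2 lists gave 30818 sites, of 43784 in the 5 PR lists of the series merged.

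T47D-MTVL is an established human luminal breast cancer line that expresses PR and carries an integrated mouse mammary tumour virus reporter. Both groups were treated alike except for time: cells had 48 h of charcoal-treated serum and then 1 day free of serum, received 10 nM R5020 for 360 or 60 min, and were fixed in 1% formaldehyde for 10 min before PR was precipitated for sequencing (ChIP-seq). Unstimulated cells of the same line gave 3 lists of regions: those with H3K4me1 (monomethylation of lysine 4 on histone H3), those with H3K4me3 (trimethylation of the same lysine) and those with RNA polymerase II. A table by the authors gives, for each 60 min site, reads left after digestion with micrococcal nuclease (MNase) in cells with R5020 and in unstimulated cells. Per the design text that digestion was done after 60 min of R5020, so it precedes the 360 min time.

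PR is a nuclear receptor that binds DNA as a dimer once a progestin occupies it, at hormone response elements in enhancers and promoters, where it recruits coregulators and chromatin remodellers. H3K4me1 marks enhancers and the flanks of promoters, H3K4me3 marks active promoters, and RNA polymerase II lies at promoters and along transcribed genes. MNase cuts the DNA between nucleosomes, so that reads from a place that is wrapped in a nucleosome are retained and reads from an exposed place are depleted.

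There was 1 library per time, so a difference between the times cannot be set against the spread between cultures, and no test was run. The lists hold positions alone, with no height or read number, and the depth of the libraries is unknown. A site that is not listed was not shown to be unbound, and depth and biology cannot be told apart in any difference between the lists. Shares carry exact (Clopper-Pearson) 95% intervals, which cover counting error only. Coordinates are those of the lists on hg19.

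Most PR sites of 60 min were still listed at 360 min, while a part of each list had no partner. Of the 360 min list, 6538 sites were gained (27.4%, interval 26.9 to 28.0%) and 17303 were kept. Of the 60 min list, 7194 sites were lost (29.4%, interval 28.9 to 30.0%) and 17242 were kept. The numbers of kept sites differ because 153 sites of the 360 min list and 214 sites of the 60 min list overlapped more than 1 site of the other list. Few sites were near the limit of the rule. Of the gained sites, 128 (1.96%) lay within 100 bp of a 60 min site, and of the lost sites 157 (2.18%) lay within 100 bp of a 360 min site. Of the 17459 overlapping pairs, 74 had at most 100 bp in common.

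These shares were somewhat above those seen between 30 and 60 min. Of the 60 min sites 22.4% (21.9 to 22.95%) were not listed at 30 min, and of the 30 min sites 26.6% (26.0 to 27.1%) were not listed at 60 min. Between 5 and 30 min the exchange was larger, with 45.2% of the 30 min sites not listed at 5 min and 38.1% of the 5 min sites not listed at 30 min. The length of the interval between lists therefore did not order the exchange.

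Gained and lost sites were both narrower than the kept sites of their list, and the gap in medians was larger for gained sites. The gained sites had a median width of 228 bp (quartiles 199 and 271 bp), against 281 bp (238 and 349 bp) for the kept sites of the same list. The lost sites had a median of 291 bp (242 and 366 bp), against 321 bp (269 and 404 bp) for the kept sites of the 60 min list. Over the whole lists the medians were 265 bp at 360 min and 313 bp at 60 min, and the 360 min list covered 6.91 Mb in all, against 8.33 Mb for the 60 min list.

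The gained share fell with width through the whole 360 min list, whereas the lost share stayed level over much of the 60 min list. In the narrowest decile of 360 min sites (median 178 bp) 56.7% were gained (54.7 to 58.7%), in the fifth (median 257 bp) 22.9% were gained, and in the widest (median 488 bp) 7.47% were gained (6.44 to 8.60%). In the narrowest decile of 60 min sites (median 211 bp) 51.2% were lost (49.2 to 53.2%). The lost share was 28.7% in the next but one (median 261 bp), and from there to the eighth decile (median 393 bp) it lay between 24.9 and 28.7%. In the widest decile (median 565 bp) 20.5% were still lost (18.9 to 22.2%). The share of sites without a partner thus depended on the sites taken. Among the wider 50% of each list, set against the whole other list, 14.9% of the 360 min sites were gained and 24.4% of the 60 min sites were lost. When the wider 50% of both lists were set against each other, 42.9% were gained and 44.2% were lost.

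**Figure D1:**
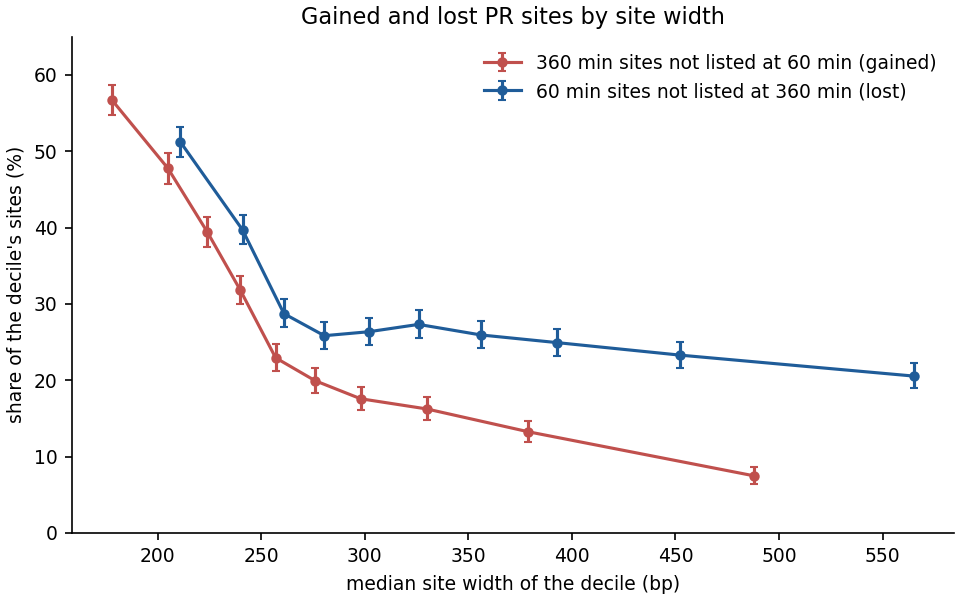
Share of PR sites without a partner in the other list (vertical axis, %) against the median width of each width decile (horizontal axis, bp), for gained sites of the 360 min list and lost sites of the 60 min list, with 95% intervals as bars. The gained share falls from 56.7% in the narrowest decile to 7.47% in the widest, while the lost share lies between 24.9 and 28.7% from the third to the eighth decile.

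The widest gained and lost sites differed in how often earlier lists held them. The 5 widest lost sites were 884 to 1044 bp wide and each was listed at 5 and 30 min as well as at 60 min. The widest, chr10:111662385-111663429, was 1044 bp at 60 min and lay in no region of the 3 chromatin lists. The next was chr16:50739663-50740604 (941 bp, in an H3K4me1 region). The 5 widest gained sites were 685 to 894 bp wide. The first 3 of them, chr9:123236622-123237516 (894 bp), chr21:38328008-38328753 (745 bp) and chr13:25556967-25557684 (717 bp), were in no earlier list and in no chromatin region. The fifth, chr3:185842233-185842918 (685 bp, in an H3K4me1 region), had been listed at 5 min and at neither 30 nor 60 min.

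The same contrast held over the 100 widest sites of each class, a set chosen after the values were seen. At 5 or 30 min the lists held 36 of the 100 widest gained sites, against 98 of the 100 widest kept sites of the 360 min list. They held 80 of the 100 widest lost sites, against 97 of the 100 widest kept sites of the 60 min list. H3K4me1 regions held 29 of the 100 widest gained sites and 70 of the 100 widest kept sites at 360 min. They held 60 of the 100 widest lost sites and 77 of the 100 widest kept sites at 60 min. The sets were not matched in width, as the widest gained site had 894 bp and the widest kept site at 360 min 1565 bp. Over all sites, the 5 or 30 min lists held 32.4% of gained and 89.0% of kept 360 min sites, and 62.9% of lost and 89.1% of kept 60 min sites. H3K4me1 regions held 31.2, 50.3, 42.8 and 50.5% in the same order.

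Where PR was listed at both times, most of its sites were narrower at 360 min. For 16751 pairs in which each site had 1 partner, the median width was 281 bp at 360 min and 321 bp at 60 min. The median ratio of 360 min to 60 min width was 0.912 (interval 0.909 to 0.917, quartiles 0.754 and 1.04). The 360 min site was the narrower in 67.5% of pairs, the wider in 31.9% and of equal width in 0.627%. Of the pairs, 2617 (15.6%) were at least 1.5 times narrower at 360 min, and 337 (2.01%) were at least 1.5 times wider. The change was not carried by a few chromosomes: the median ratio was below 1 on each of the 23 chromosomes with pairs, between 0.888 on chromosomes X and 18 and 0.930 on chromosome 21.

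The midpoints of paired sites lay close together. The pairing rule favours this, since paired sites had to overlap and a site that moved further counts as lost and gained. The midpoints of paired sites were a median of 21 bp apart (quartiles 9 and 42.5 bp), and 80.0% of pairs had midpoints within 50 bp. In 42.6% of pairs the 360 min site lay wholly inside the 60 min site, and in 15.5% the 60 min site lay wholly inside the 360 min site. Across the pairs the widths at 360 and 60 min had a Spearman's rho of 0.49, given as a description since pairs are not independent and both widths rest on the sequence at 1 place.

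The size of the change depended on which width was used to order the pairs. By quartile of 60 min width, narrowest first, the median ratio was 1.01, 0.931, 0.858 and 0.776. By quartile of 360 min width the order was turned round, with 0.747, 0.898, 0.961 and 1.01. By quartile of the geometric mean of both widths, which favours neither list, it was 0.901, 0.920, 0.9003 and 0.931. Ordered in this last way, wide and narrow sites differed far less in their median change.

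The width change differed with the history of the sites. Pairs whose 60 min site was also listed at 5 and 30 min had a median ratio of 0.932 (0.927 to 0.936), against 0.867 (0.852 to 0.884) for pairs listed at neither earlier time. Pairs listed at 30 but not 5 min had 0.882, and pairs listed at 5 but not 30 min had 0.838 (0.792 to 0.869). By chromatin the differences were smaller. Pairs in H3K4me3 regions had a ratio of 0.888 (0.869 to 0.903), against 0.914 (0.910 to 0.918) outside them. The ratio was 0.918 inside and 0.907 outside H3K4me1 regions, and 0.911 inside and 0.913 outside RNA polymerase II regions.

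A set of 9448 sites with 1 partner at each time with hormone showed where the narrowing fell in time. At 5 min they had a median width of 303 bp, which was 321 bp after 30 min. The median was 324 bp after 60 min and 290.0 bp after 360 min. Relative to the same site at 60 min, the median ratio was 0.95 for 5 min, 1.002 for 30 min and 0.932 for 360 min. These sites were thus widest at 30 and 60 min. Each whole list had a lower median than its members in this set, by the least in the 60 min list.

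**Figure D2:**
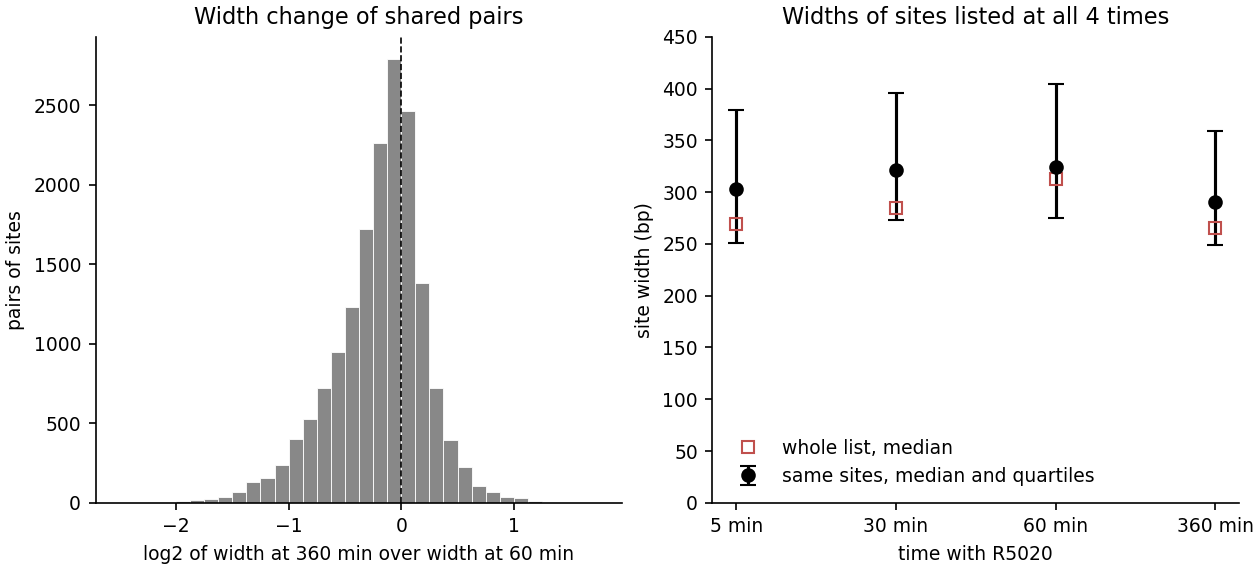
Left, number of shared pairs (vertical axis) by the log2 ratio of width at 360 min to width at 60 min (horizontal axis), with a dashed line at no change; 67.5% of the 16751 pairs are narrower at 360 min. Right, site width in bp at 5, 30, 60 and 360 min for the 9448 sites listed at all 4 times (points, median; bars, quartiles) and the median of each whole list (squares); the set's median is 290.0 bp at 360 min and 324 bp at 60 min.

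Of the 16751 pairs, 8149 lay in none of the 3 kinds of region. The 3 pairs that narrowed most each lay in a marked region, as did all but 1 of the 3 that widened most. Such small numbers cannot be told apart from the share over all pairs. On chromosome 1 the site chr1:229979965-229981038, in an H3K4me1 region, was 205 bp at 360 min and 1073 bp at 60 min, a ratio of 0.191. On chromosome 12 the site chr12:10516866-10517698, in an RNA polymerase II region, was 187 bp at 360 min and 832 bp at 60 min (0.225). In the other direction chr3:192315400-192315501, in H3K4me1 and RNA polymerase II regions, was 2.97 times as wide at 360 min as at 60 min, when it had 101 bp. The site chr9:100883967-100884136, in none of the regions, was 443 bp at 360 min and 169 bp at 60 min (2.62).

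Some of the widest kept sites at 360 min overlapped 2 sites of the 60 min list. The widest, chr5:1326372-1327937, was 1565 bp at 360 min, and overlapped 60 min sites of 958 and 592 bp, both in H3K4me1 and RNA polymerase II regions and the wider one also in an H3K4me3 region. On chromosome 19 the site chr19:18808606-18810034 was 1428 bp at 360 min and overlapped 60 min sites of 633 and 738 bp, with none of the 3 kinds of region. Such joins are rare, as only 153 of the 360 min sites had more than 1 partner.

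Gained PR sites lay in chromatin marked before hormone far less often than kept ones, and lost sites somewhat less often. H3K4me1 regions held 31.2% of gained sites (30.0 to 32.3%), against 50.3% (49.6 to 51.1%) of the kept sites of the 360 min list. They held 42.8% of lost sites (41.6 to 43.9%), against 50.5% (49.8 to 51.3%) of the kept sites of the 60 min list. RNA polymerase II regions held 3.95% of gained sites (3.49 to 4.45%) and 9.17% of kept sites at 360 min. They held 7.81% of lost sites (7.20 to 8.46%) and 9.38% (8.95 to 9.83%) of kept sites at 60 min. The order of these polymerase shares changed with the history of the sites, described further on. None of the 3 kinds of region was present at 67.9% of gained sites and 48.4% of kept sites at 360 min, nor at 55.6% of lost sites and 48.1% of kept sites at 60 min.

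H3K4me3, the promoter mark, was about as frequent at lost as at kept sites and less frequent at gained ones. They held 2.39% of gained sites (2.03 to 2.79%), against 4.87% (4.55 to 5.20%) of the kept sites of the 360 min list. Among the 60 min sites they held 5.45% of lost sites (4.94 to 5.999%) and 4.99% of kept sites (4.67 to 5.32%), intervals that overlap. Loss was thus about as frequent at H3K4me3-marked sites as elsewhere, at 31.3% (28.8 to 34.0%) inside and 29.3% (28.7 to 29.9%) outside these regions. Gain was the less frequent there, at 15.6% (13.4 to 18.04%) inside and 27.9% (27.4 to 28.5%) outside.

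The lower H3K4me1 shares were present at each site width. By quartile of 360 min width, narrowest first, 32.4, 31.4, 27.6 and 30.8% of gained sites were in H3K4me1 regions, against 48.4, 48.0, 49.4 and 54.1% of kept sites. By quartile of 60 min width the shares were 41.4, 40.3, 42.6 and 48.6% of lost sites, against 49.1, 49.6, 49.4 and 53.5% of kept sites. Gained sites were thus below kept sites of like width in each quartile, and lost sites were as well. Among sites of like history, described further on, the gap was smaller for gained sites and changed its direction for some lost ones.

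**Figure D3:**
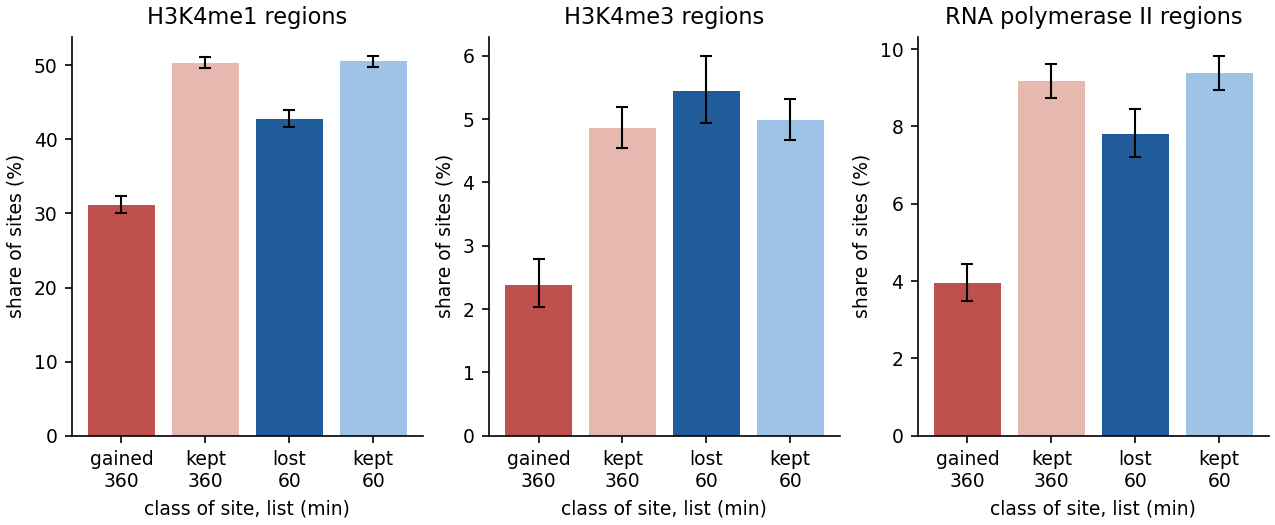
Share of PR sites (vertical axes, %) that overlap H3K4me1, H3K4me3 and RNA polymerase II regions of unstimulated cells, for gained and kept sites of the 360 min list and lost and kept sites of the 60 min list, with 95% intervals as bars. H3K4me1 regions hold 31.2% of gained sites, 42.8% of lost sites and about 50% of kept sites, and H3K4me3 regions hold 2.39% of gained and 5.45% of lost sites.

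Combinations of marks gave a wider range of exchange than single marks. Sites with H3K4me1 and RNA polymerase II but no H3K4me3 had the lowest lost share among classes of over 1000 sites, 21.8% (19.6 to 24.2%) of 1246 sites at 60 min, and 13.1% (11.1 to 15.2%) of the 360 min sites of this class were gained. Where H3K4me3 was present as well, 30.4% (26.9 to 34.0%) of 685 sites at 60 min were lost and 12.6% (9.91 to 15.8%) of 531 sites at 360 min were gained. Of sites with H3K4me1 alone 20.1% were gained (19.3 to 20.98%) and 26.1% were lost (25.3 to 27.0%), and this lost share was below that of sites in all 3 kinds of region. Of sites in none of the regions 34.6% were gained (33.8 to 35.5%) and 32.5% were lost (31.7 to 33.4%). In unmarked chromatin the gained share was thus the higher of the pair, and in each of the marked classes the lost share was the higher, with overlapping intervals in the classes of RNA polymerase II alone, H3K4me3 alone, and both without H3K4me1.

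**Figure D4:**
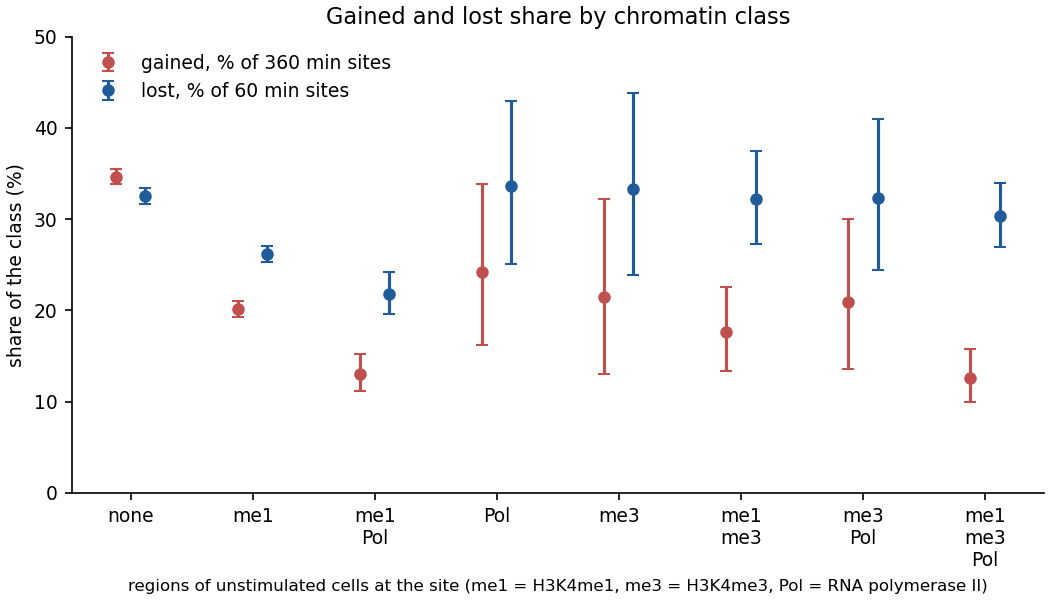
Share of each chromatin class (vertical axis, %) that was gained, of 360 min sites, or lost, of 60 min sites, with 95% intervals as bars; classes run from sites in none of the 3 kinds of region to sites in all 3. Unmarked sites have 34.6% gained and 32.5% lost, and sites in all 3 kinds of region 12.6% gained and 30.4% lost.

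Fewer marked regions held PR at 360 min than at 60 min. Of 1412 H3K4me3 regions with a PR site at either time, 832 held one at both times, 156 at 360 min alone and 424 at 60 min alone. Of 2394 RNA polymerase II regions, 1551 held one at both times, 264 at 360 min alone and 579 at 60 min alone. Of 10295 H3K4me1 regions, 6905 held one at both times, 1379 at 360 min alone and 2011 at 60 min alone. Regions with several sites seldom lost all of them. Of H3K4me1 regions with 1 site at 60 min, 73.0% (72.0 to 74.0%) still held a site at 360 min, against 92.1% (90.5 to 93.5%) of those with 2 and 98.9% (97.6 to 99.6%) of those with 3 or more. More sites also give more chances to keep one, and this was not separated here.

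Isolated sites were exchanged more often than clustered ones. Of 360 min sites with no other site of their list within 25 kb, 33.0% were gained (32.0 to 34.0%), against 18.9% (17.6 to 20.4%) of those with 4 or more such neighbours. Of 60 min sites with none, 32.5% were lost (31.5 to 33.5%), against 25.4% (24.0 to 26.9%) of those with 4 or more. Gained sites were a median of 21836 bp from the nearest 60 min site, and 9.19% lay within 1000 bp of one. Lost sites were a median of 19006 bp from the nearest 360 min site, and 10.98% lay within 1000 bp of one. Most gained and lost sites thus lay far from any site of the other list.

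Most lost sites had been listed before 60 min, and most gained sites had not been listed at any earlier time. Of the lost sites 34.6% were in the 5 min list and 55.6% in the 30 min list, against 61.7 and 86.8% of the kept sites of the 60 min list. Both lists held 27.2% of the lost sites and 59.3% of the kept ones, and neither held 37.1% of the lost sites and 10.9% of the kept ones. Of the gained sites 14.6% were in the 5 min list and 26.2% in the 30 min list. Neither list held 4422 of them (67.6%, interval 66.5 to 68.8%), against 10.98% of the kept sites of the 360 min list. The remaining 2116 gained sites (32.4%) were listed at 5 or 30 min, absent from the 60 min list and listed again at 360 min, and 553 of these were listed at both 5 and 30 min. The list of unstimulated cells held 7 gained and 9 lost sites.

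The 60 min sites that both earlier lists held were lost least often. Of sites listed at 5 and 30 min 16.1% were lost (15.4 to 16.7%), of sites listed at 30 but not 5 min 30.1% (29.1 to 31.2%), and of sites listed at neither 58.6% (57.2 to 60.1%). Sites listed at 5 but not 30 min were lost about as often as the last, at 56.7% (53.5 to 59.9%). The gained share of the 360 min list followed the same order, with 5.13% of sites listed at 5 and 30 min, 19.6% of sites listed at 30 but not 5 min, 49.9% of sites listed at 5 but not 30 min, and 69.9% of sites listed at neither.

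Site width in the earlier lists, which the rule did not use, already differed. In the 30 min list the later gained sites had a median width of 248 bp (interval 244 to 251 bp, 1682 pairs), against 309 bp (307 to 311 bp) for kept sites of the 360 min list. The lost sites had a median of 274 bp there (271 to 277 bp, 3882 pairs), against 309 bp for kept sites of the 60 min list. In the 5 min list the medians were 253 bp for gained and 302 bp for kept sites of the 360 min list, and 276 bp for lost and 302 bp for kept sites of the 60 min list. The median ratio of 60 min to 30 min width was 1.09 for lost sites, against 1.02 for kept sites. The lost sites were the narrower at 30 min, and such a ratio depends on the starting width. Sites of equal 30 min width were not compared.

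The H3K4me1 share varied with the history of the sites in each class. Of gained sites seen at neither 5 nor 30 min 26.5% lay in H3K4me1 regions (25.2 to 27.8%), and of those also listed at both times 52.1% (47.8 to 56.3%). Gained sites listed at 5 but not 30 min had 52.5%, and gained sites listed at 30 but not 5 min had 31.6%. Among lost sites the shares were 36.9% for those listed at neither time, 54.4% at both, 54.8% at 5 but not 30 min and 36.2% at 30 but not 5 min. Among kept sites of the 60 min list they were 32.4, 60.6, 58.0 and 35.3% for the same histories. Lost sites listed at neither earlier time were thus in H3K4me1 regions more often than kept ones (35.0 to 38.7% against 30.3 to 34.5%), and for sites listed at 30 but not 5 min the intervals overlapped. Among kept sites of the 360 min list the shares were 32.1% for those listed at neither time, 60.5% at both, 57.8% at 5 but not 30 min and 35.1% at 30 but not 5 min. The shares of gained sites were below those of kept ones in each history, by less than over all sites, and with overlapping intervals for sites listed at only 1 of the 2 earlier times. In each of the classes, presence at 5 min went with an H3K4me1 share above 50%. The H3K4me3 share also went different ways by history. It was 6.11% (5.23 to 7.08%) of lost and 3.93% (3.10 to 4.91%) of kept 60 min sites listed at neither 5 nor 30 min, and 4.46% of lost and 3.03% of kept sites listed at 30 but not 5 min. It was 5.36% of lost and 5.93% of kept sites listed at both times, and 6.26% of lost and 8.96% of kept sites listed at 5 but not 30 min, with overlapping intervals. For RNA polymerase II regions, lost against kept 60 min sites had 6.78 against 5.42% (neither time) and 5.15 against 3.98% (30, not 5 min). They had 11.3 against 12.4% (both) and 10.25 against 14.7% (5, not 30 min), all with overlapping intervals. Gained against kept 360 min sites had 3.03 against 5.47%, 4.57 against 3.84%, 6.33 against 12.1% and 8.91 against 15.3% in the same order.

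Sites that were later lost had less depletion of MNase reads with R5020 than sites that were kept. In the authors' deposited table the lost sites had a median of 71 reads with R5020 and 87 reads in unstimulated cells, and the kept sites 76 reads with R5020 and 102 in unstimulated cells. Per 100 bp, the authors' deposited table gives medians of 23.6 reads with R5020 and 28.8 unstimulated at lost sites, and 22.9 with R5020 and 30.8 unstimulated at kept sites. The ratio of R5020 to unstimulated reads, computed from the authors' deposited table, had a median of 0.827 at lost sites (quartiles 0.646 and 1.03), against 0.752 at kept sites (0.587 and 0.937). On the log2 scale these medians are -0.27 for lost and -0.41 for kept sites, a difference of 0.14, and the quartile ranges of both classes overlap widely in the authors' deposited table. Gained sites have no value in this table.

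Strong depletion was less frequent at lost sites. Of all 60 min sites 13.4% had a ratio of 0.5 or less in the authors' deposited table, and the share was 10.6% of lost sites (9.85 to 11.3%) and 14.6% of kept sites (14.1 to 15.2%). More reads with R5020 than without were found at 26.9% of lost sites (25.9 to 28.0%) and 18.4% of kept sites (17.8 to 18.97%) in the authors' deposited table. The median log2 ratio of lost sites was above that of kept sites on 22 of 23 chromosomes in the authors' deposited table, with differences between -0.03 on chromosome 19 and 0.21 on chromosome 6.

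The MNase difference was present at each width and read density but varied with history. By quartile of 60 min width the difference in median log2 ratio, lost minus kept, was 0.09, 0.15, 0.16 and 0.14 in the authors' deposited table. Within 5 groups of sites of like unstimulated read density it lay between 0.09 and 0.15 in the authors' deposited table. It was 0.19 among sites listed at 5 and 30 min and 0.05 among sites listed at neither, again from the authors' deposited table.

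At sites with both promoter features the order was the reverse. At 60 min sites in both H3K4me3 and RNA polymerase II regions, the authors' deposited table gives the 251 lost sites a median of 46 reads with R5020 and 110 unstimulated, a ratio of 0.407. It gives the 567 kept sites 65 reads with R5020 and 133 unstimulated in the authors' deposited table, a ratio of 0.470. The difference in median log2 ratio was -0.21 there and 0.14 over the other sites of the authors' deposited table. A ratio of 0.5 or less was found at 67.7% of these lost sites (61.6 to 73.5%) and 57.1% of these kept sites (53.0 to 61.3%) in the authors' deposited table. Of the 19 chromosomes with at least 5 such sites in each class, 16 had a lower median at lost sites in the authors' deposited table. Sites with H3K4me1 and RNA polymerase II but no H3K4me3 had a difference of 0.13 in the authors' deposited table, and sites in none of the regions 0.11. Sites with H3K4me1 and H3K4me3 but no RNA polymerase II had a difference of -0.06 in the authors' deposited table, with a ratio of 0.5 or less at 32.7% of 110 lost sites (24.1 to 42.3%) and 24.7% of 231 kept sites (19.3 to 30.8%). For H3K4me3 alone the difference was 0.15, with such a ratio at 16.1% of 31 lost and 25.8% of 62 kept sites in the authors' deposited table. For RNA polymerase II alone it was 0.21, with 15.4% of 39 lost and 29.9% of 77 kept sites in the authors' deposited table. The reversal was thus not seen in every class with H3K4me3. These classes were compared after the values were seen, and the number of sites in them limits the precision.

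**Figure D5:**
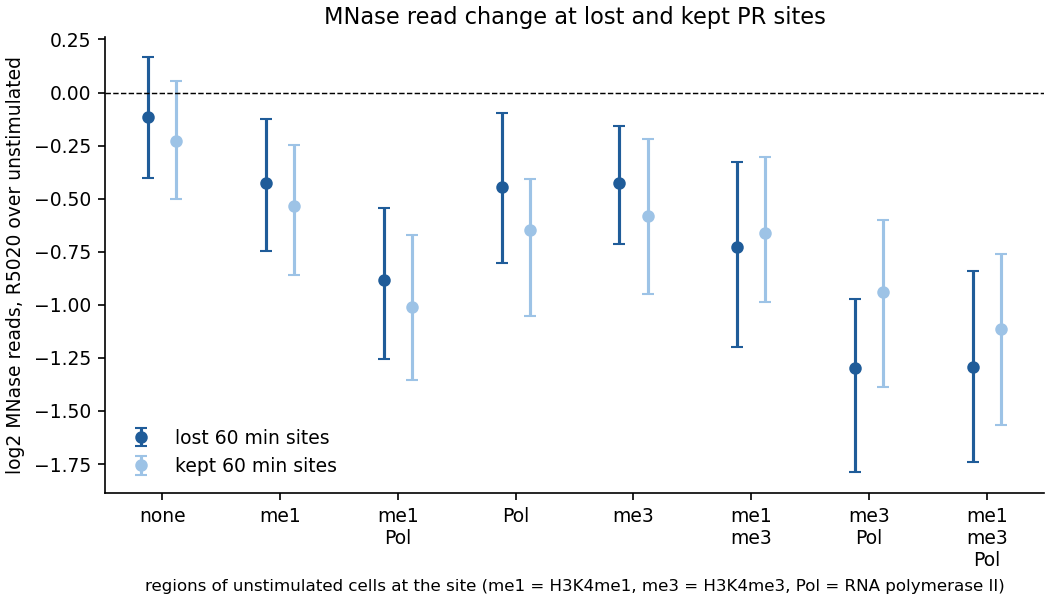
Log2 ratio of MNase reads with R5020 to unstimulated reads in the authors' deposited table (vertical axis) at lost and kept 60 min sites, by chromatin class (horizontal axis), as medians with quartiles. Lost sites lie above kept sites in the unmarked class and in those of H3K4me1, H3K4me3 or RNA polymerase II alone. They lie below them where H3K4me3 and RNA polymerase II occur together, with medians of -1.30 and -0.94 in the class without H3K4me1.

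The 3 lost and the 3 kept sites with the lowest ratios lay in H3K4me3 regions, some of them with few reads. Among sites with at least 20 unstimulated reads, the lost site with the lowest ratio was chr18:77724480-77724702, with 1 read with R5020 and 29 unstimulated in the authors' deposited table. It lay in all 3 kinds of region and was listed at neither 5 nor 30 min. The kept site with the lowest ratio, chr12:6310324-6310589, had 0 reads with R5020 and 21 unstimulated in the authors' deposited table, and lay in an H3K4me3 region. The next, chr2:192542793-192543046, had 17 reads with R5020 and 172 unstimulated in the authors' deposited table, and lay in H3K4me3 and RNA polymerase II regions. These few sites do not stand for all depleted ones. Of the sites with a ratio of 0.5 or less, most of any class lay in H3K4me1 regions alone. That class held 325 of 759 such lost sites and 1228 of 2524 such kept sites in the authors' deposited table. It was also large, with 2488 of all 7194 lost sites and 7029 of all 17242 kept sites. Such a ratio was found at 13.1% of its lost and 17.5% of its kept sites, against 10.6 and 14.6% over all classes. In the class with all 3 kinds of region the shares were 66.8 and 59.5% in the authors' deposited table.

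Width change and MNase reads were only loosely ordered. Pairs at least 1.5 times narrower at 360 min had a median MNase ratio of 0.793 in the authors' deposited table, against 0.750 for pairs at least 1.5 times wider. Pairs with smaller changes had 0.747 where narrower and 0.740 where equal or wider in the authors' deposited table. The strongly narrowed sites were thus nearest to the lost sites in this ratio, though their 60 min width, a median of 429 bp, was well above that of lost sites.

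Along the chromosomes the balance of gain and loss varied little. The number of 360 min sites relative to 60 min sites lay between 0.931 on chromosome 8 and 1.10 on chromosome 19. Chromosome 19 had 423 sites at 360 min and 384 at 60 min, with 31.0% gained (26.6 to 35.6%) and 24.0% lost (19.8 to 28.5%). Chromosome 4 had the highest lost share, 33.4% (30.5 to 36.4%), with 28.1% gained (25.3 to 31.1%). Its lost share had an interval apart from that of chromosome 19. The highest gained share was on chromosome 21, 33.5% (28.4 to 39.0%). Of 2684 windows of 1 Mb with a site at either time, 1807 held both gained and lost sites.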

How the data were processed

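PR ChIP-seq lists of 5 times and chromatin lists of unstimulated cells were used as deposited by the authors: chromosome, start and end per site, 1 list per library, on hg19 per the submitters' processing notes. The sources used here give no aligner, peak caller, threshold, control or depth, nor do they say whether starts count from 0 or 1, and width was taken as end minus start. MNase values are whole-number normalized read numbers, handled as a score, per the file headers of the authors' deposited table, and how they were normalized is stated nowhere in the sources used. The authors' deposited ratio (unstimulated over R5020) was not used, and the ratio of R5020 to unstimulated reads was computed from the reads. The 3 sites with 0 R5020 reads have a ratio of 0 and were left out of log2 values only. The MNase libraries were not analysed here.

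Overlap of 1 bp or more defined shared sites. Width ratios used pairs with 1 partner each. Medians carry order-statistic 95% intervals over sites. Alternatives were a reciprocal overlap of 50%, a distance of 500 bp, wider sites or regions only, midpoints, MNase trimming and minimum reads, and leaving out chromosomes X, Y and M. Named sites were the 5 widest gained, kept and lost sites, the 3 pairs with the largest and the smallest width ratio, and the 3 lost and 3 kept sites with the lowest MNase ratio, of which examples are printed. Members, classes and rules were chosen with earlier results of these data known. Gene loci, motifs and sequences were not used here, since no genome or annotation of hg19 was at hand. Overlap, pairing and median steps were tested on simulated data. Python 3.11.15, NumPy 2.4.6, pandas 2.3.3, SciPy 1.17.1 and Matplotlib 3.10.9 were used.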

Additional observations from a re-analysis of the deposited data

How the results depend on the processing

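No paired analysis was possible because each time has 1 library. Of 54 alternatives to 13 results, 23 stayed within the interval of the reported value and 31 moved outside it. The gained and lost shares were 32.4 and 34.0% with a reciprocal overlap of 50%, 25.7 and 27.3% when sites within 500 bp counted as shared, 14.9 and 24.4% for the wider 50% of the list described, and 42.9 and 44.2% for the wider 50% of both lists. The width ratio was 0.923 with a reciprocal overlap of 50%. With that overlap the shares in H3K4me1 regions were 34.5% of gained and 44.3% of lost sites, the H3K4me3 share of gained sites was 2.96%, and the RNA polymerase II shares were 5.10% of gained and 8.47% of lost sites. Counting midpoints, H3K4me1 regions held 41.5% of lost and 49.2% of kept sites, H3K4me3 regions 4.42% of lost and 3.81% of kept sites, and RNA polymerase II regions 3.23% of gained, 6.28% of lost and 7.55% of kept sites. With the wider 50% of the regions, the gained, lost and kept shares were 24.4, 33.3 and 40.9% for H3K4me1, 1.61, 3.75 and 3.38% for H3K4me3, and 2.98, 5.27 and 6.27% for RNA polymerase II. Without the upper and lower 5% of ratios the MNase difference, from the authors' deposited table, was 0.11. The fewer sites or regions in some alternatives change shares by construction, and the cause of the other changes was not tested. Unknown depth limits each comparison of the lists.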

Other observations

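Windows with more sites and windows with fewer sites at 360 min were both common. Whether gains or losses were concentrated in some windows was not tested. Of the 2684 windows of 1 Mb with a PR site, 999 held more sites at 360 min, 1117 held fewer and 568 held as many as at 60 min. The windows named here were chosen after their values were seen. The largest net losses were on chromosome 3 from 193 to 194 Mb, with 33 sites at 360 min and 47 at 60 min, and on chromosome 20 from 52 to 53 Mb, with 14 sites at 360 min and 28 at 60 min. In the chromosome 20 window 0 sites were gained and 14 were lost. Over the whole lists 27.4% of the 360 min sites were gained and 29.4% of the 60 min sites were lost. The largest net gain was on chromosome 5 from 139 to 140 Mb, with 29 sites at 360 min and 17 at 60 min. Next came, with equal net gains, chromosome 2 from 42 to 43 Mb, with 23 sites at 360 min and 13 at 60 min, and chromosome 12 from 43 to 44 Mb, with 20 sites at 360 min and 10 at 60 min. The most gained sites, 16, were in 2 windows, both of which held many sites. That on chromosome 16 from 85 to 86 Mb had 84 sites at 360 min and 82 at 60 min, with 13 lost. Its gained share was thus below that of the whole list. That on chromosome 5 from 148 to 149 Mb had 45 sites at 360 min and 38 at 60 min, with 8 lost. There the gained share was above that of the whole list.

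Lost sites were the more frequent where few MNase reads were found before hormone. In the lowest of 5 groups by unstimulated read density, taken from the authors' deposited table, 33.5% of 60 min sites were lost (32.2 to 34.9%), against 26.7% (25.4 to 27.9%) in the highest. In the lowest group the median log2 ratio of R5020 to unstimulated reads was 0.03 at lost and -0.13 at kept sites, in the authors' deposited table. In the highest group it was -0.49 at lost and -0.63 at kept sites. The groups were formed on the unstimulated reads by which the ratio is divided, so low groups tend to higher ratios. The level of the ratio is therefore not compared between groups, only between lost and kept sites within 1 group.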
